A study of Mus musculus with 9 samples.

Results

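Dazl, Ddx4, Mael, Sycp1, Sycp3, Asz1, Taf7l, Slc25a31 and Tex101 are 9 genes of the mouse germline, the cell lineage that gives rise to eggs and sperm. They were chosen by name from the 35896 genes to which the deposited transcripts could be assigned, by a rule that uses no expression value, though with earlier results of these data known. Each is known as a gene whose CpG-rich promoter is methylated and silent in somatic tissue. DNA methylation was not measured in this series, and all 9 genes had reads in at least some libraries, so they are called the 9 germline genes here.

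RNA levels were compared in E14, a mouse embryonic stem cell line, in 3 groups of 3 libraries each. Cells labelled control +LIF2i were kept in serum medium with the cytokine LIF and with 1 µM each of PD0325901, an inhibitor of MEK, and CHIR99021, an inhibitor of glycogen synthase kinase-3β. This mixture, called LIF2i, holds the cells in self-renewal. Cells labelled control 72h -LIF2i were placed for 72 h in the same medium without these additions, which lets them differentiate. Cells labelled CK666 72h -LIF2i went through the same 72 h with 80 µM CK666, an inhibitor of the Arp2/3 complex, which makes branched actin filaments. CK666 came from a stock in DMSO, and no label states that controls were given this solvent, so drug and solvent cannot be told apart. All 9 libraries come from this 1 line, with no genetic change named in the labels, and replicates are described as paired biological replicates.

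As background, the promoters of such genes gain methylation around implantation through the de novo methyltransferases DNMT3A and DNMT3B. The maintenance methyltransferase DNMT1 and its partner UHRF1 copy the mark at each cell division, and TET enzymes oxidise it. In primordial germ cells the mark is erased and these genes come on. In embryonic stem cells a Polycomb complex that holds PCGF6, MGA and E2F6, and the histone methyltransferases EHMT1 and EHMT2, also repress germline genes.

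The windows around the start sites of 6 of the genes are printed because they show the CpG-rich sequence that the genes have in common and the short motifs found in some of them. The first 5 belong to the genes whose RNA rose in at least 1 comparison below, and the last, Dazl, is shown as a gene that was not called. Each window runs from 250 bases before the RefSeq start site to 50 bases after it, on the gene's own strand, in GRCm38.p6, and capitals mark the letters CACGTG or GGCGGGA, the latter also as its reverse complement TCCCGCC.
Mael, chr1:166238695-166238994, minus strand: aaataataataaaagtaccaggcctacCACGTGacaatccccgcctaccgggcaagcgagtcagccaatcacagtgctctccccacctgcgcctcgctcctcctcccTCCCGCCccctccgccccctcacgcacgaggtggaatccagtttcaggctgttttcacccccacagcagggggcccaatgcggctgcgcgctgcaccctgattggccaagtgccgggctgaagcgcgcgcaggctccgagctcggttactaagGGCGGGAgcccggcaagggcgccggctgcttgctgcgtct
Ddx4, chr13:112652261-112652560, minus strand: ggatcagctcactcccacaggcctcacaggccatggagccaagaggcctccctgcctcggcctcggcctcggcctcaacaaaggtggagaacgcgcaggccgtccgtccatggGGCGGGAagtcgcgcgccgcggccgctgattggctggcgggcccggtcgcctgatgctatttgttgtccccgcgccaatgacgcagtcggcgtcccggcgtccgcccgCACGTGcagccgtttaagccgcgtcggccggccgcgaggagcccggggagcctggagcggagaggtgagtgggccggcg
Sycp3, chr10:88459337-88459636, plus strand: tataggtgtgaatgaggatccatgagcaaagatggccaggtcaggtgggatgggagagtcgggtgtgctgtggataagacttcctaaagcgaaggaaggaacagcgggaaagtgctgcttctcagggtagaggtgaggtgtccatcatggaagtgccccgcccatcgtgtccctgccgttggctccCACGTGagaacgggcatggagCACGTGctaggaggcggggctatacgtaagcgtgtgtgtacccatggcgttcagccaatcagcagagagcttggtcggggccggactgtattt
Taf7l, chrX:134476441-134476740, minus strand: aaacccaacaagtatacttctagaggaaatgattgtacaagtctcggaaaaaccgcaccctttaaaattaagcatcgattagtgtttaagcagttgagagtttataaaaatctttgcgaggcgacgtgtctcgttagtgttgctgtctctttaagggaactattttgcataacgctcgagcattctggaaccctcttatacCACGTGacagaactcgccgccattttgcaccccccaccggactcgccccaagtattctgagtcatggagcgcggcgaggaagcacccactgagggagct
Slc25a31, chr3:40708621-40708920, plus strand: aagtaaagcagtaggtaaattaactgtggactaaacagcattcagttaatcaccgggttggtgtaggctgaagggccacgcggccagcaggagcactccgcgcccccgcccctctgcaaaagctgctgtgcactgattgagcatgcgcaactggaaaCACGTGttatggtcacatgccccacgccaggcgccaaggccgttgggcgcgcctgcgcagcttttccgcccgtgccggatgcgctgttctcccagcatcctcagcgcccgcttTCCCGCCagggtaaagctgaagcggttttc
Dazl, chr17:50293571-50293870, minus strand: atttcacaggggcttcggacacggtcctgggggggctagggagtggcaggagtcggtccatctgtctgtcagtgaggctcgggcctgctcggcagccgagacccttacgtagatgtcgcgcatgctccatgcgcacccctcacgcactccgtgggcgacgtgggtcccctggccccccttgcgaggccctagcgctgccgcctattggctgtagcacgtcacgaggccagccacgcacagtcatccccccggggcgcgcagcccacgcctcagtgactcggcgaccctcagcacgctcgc

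All 9 genes had a window among the 32851 windows of this kind. They held from 15 CpG dinucleotides in Sycp3 to 38 in Ddx4, where the median over all windows was 7. The observed to expected CpG ratio, which corrects the CpG number for the C and G content, lay between 0.666 in Sycp3 and 1.03 in Taf7l, and the median over all windows was 0.384. The lowest of the 9, Sycp3, was at percentile 68.5 of all windows and the highest, Taf7l, at percentile 95.5. Ddx4 had the highest GC content, 72.0%, and Taf7l the lowest, 47.0%.

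**Figure D1:**
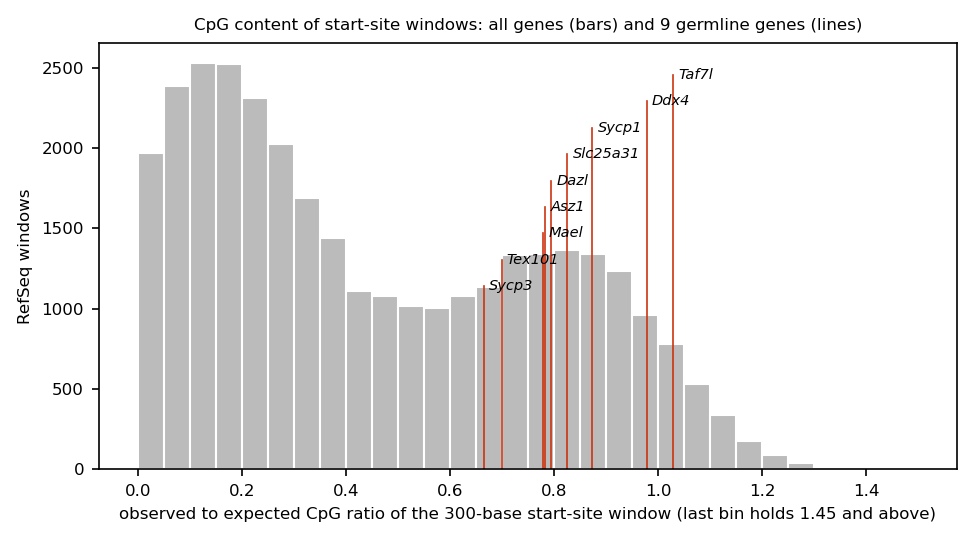
The x axis is the observed to expected CpG ratio of the window from 250 bases before to 50 bases after a RefSeq start site, and the grey bars give the number of windows per bin. The 9 red lines are the germline genes (their heights only separate the names), and all lie between 0.666 and 1.03, to the right of the median of 0.384.

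The letters CACGTG, an E-box of the kind bound by MAX with partners such as MGA, were searched on both strands, where they read the same. They were in the windows of 6 of the 9 genes (Mael, Ddx4, Sycp1, Sycp3, Taf7l and Slc25a31) and in 7.15% of all windows. Sycp3 held them at 2 places, starting at -64 and -43 from the start site, and in Ddx4, Taf7l, Slc25a31 and Sycp1 they began at -29, -49, -93 and -94, while in Mael they began at -223. The letters GGCGGGA, an E2F-type motif, were in the windows of Mael, Ddx4 and Slc25a31 on either strand and in 11.3% of all windows. Both motifs together were in these same 3 windows and in 1.18% of all windows. A match describes these letters only, no binding was measured, and Dazl, Asz1 and Tex101 had neither motif in the window. The Ddx4 start site in RefSeq is 165 bases from the outermost start in the GENCODE annotation, and that of Tex101 is 4625 bases from it.

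The libraries held 16894327 to 22550952 estimated counts, and 3 counts, used as the detection floor, were 0.133 to 0.178 CPM (counts scaled to 1000000 per library). The 3 replicate 1 libraries stood apart: reads fell on 15690 to 17605 genes in them and on 18166 to 18749 genes in the other 6, and the deviations from the group means correlated between libraries of the same number (r of 0.30 to 0.65). The replicate number was therefore a block in the main fit. Markers of embryonic stem cells were high in all libraries (summed level of 8 genes 3213 to 4478 CPM). On withdrawal 3 of these 8 rose and 3 fell (21.1% and 19.7% of all tested genes). The 9 markers of gonadal somatic cells summed to 8.25 to 11.1 CPM with LIF2i, 4.58 to 6.59 CPM after withdrawal and 4.91 to 9.38 CPM with CK666, with Fshr at 0 in all libraries. The 9 markers of primitive endoderm summed to 392 to 532 CPM, 131 to 238 CPM and 165 to 243 CPM in the same order. They did not fall together: of 8 tested, 2 fell and 1 rose on withdrawal (19.7% and 21.1% of all tested genes). Their log2 fold changes ran from -4.14 to 2.80, with a median of 0.47. The 8 markers of fibroblast feeder cells summed to 14.2 to 22.9 CPM with LIF2i, 37.2 to 48.7 CPM after withdrawal and 29.0 to 40.4 CPM with CK666. Of the 6 fibroblast markers tested, 4 rose on withdrawal (21.1% of all tested genes) and none was called for CK666 against control (2.05% of all). The part of these cell types in the results below was not tested.

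The levels corrected for transcript length, given by the deposited TPM values, set the 9 genes in an order. Sycp3 had the highest mean TPM in each group, 24.4 ± 4.99 (SD, n = 3) with LIF2i, 85.8 ± 44.9 after withdrawal and 84.5 ± 45.7 with CK666. Its range overlapped that of Dazl with LIF2i and that of Mael with CK666, but no other gene's range after withdrawal. With LIF2i, Dazl, Ddx4 and Mael came next at mean TPM of 11.01, 8.88 and 8.41, and each of these overlapped the next. Sycp1 (3.19 TPM) lay below Mael without overlap but within the wide range of Dazl, and Taf7l (1.39 TPM) lay below Sycp1 without overlap. After withdrawal Mael (23.6 TPM) and Ddx4 (16.5 TPM) came next and overlapped, and with CK666 Mael (45.8 TPM) lay above Ddx4 (24.5 TPM) with no overlap. Taf7l, Dazl and Sycp1 followed in both groups without LIF2i, at 3.23 to 6.21 TPM, and each overlapped its neighbour. Slc25a31, Tex101 and Asz1 were the lowest 3 in every group, at 1.28 TPM or less. In bulk RNA, a change in the share of cells that express a gene and a change in RNA per cell cannot be told apart.

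**Figure D2:**
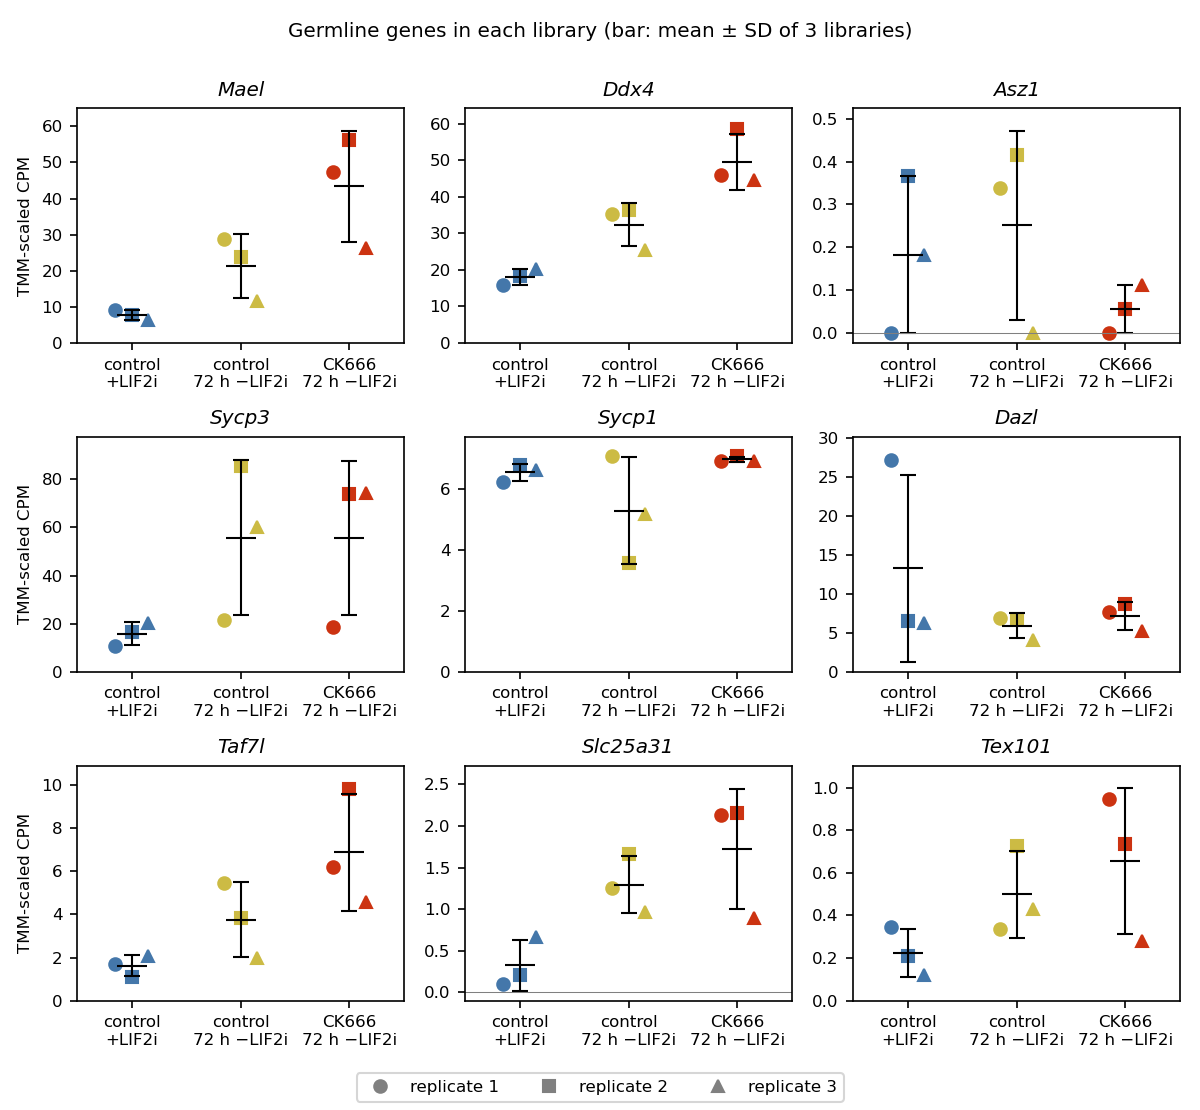
Each panel shows 1 gene, with TMM-scaled CPM on the y axis (each panel has its own linear scale) and the 3 groups on the x axis. Points are libraries, symbols are replicate numbers and bars are mean ± SD (n = 3). Mael and Ddx4 step up in both groups without LIF2i, Sycp3 is high in replicates 2 and 3 after withdrawal with or without CK666, and the Dazl mean with LIF2i rests on 1 library.

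After 72 h without LIF2i, 3 of the 9 germline genes rose in control cells and none fell. Mael rose 2.61-fold, Ddx4 1.78-fold and Sycp3 3.09-fold. Of all 14648 genes tested, 40.7% were called, 21.1% up and 19.7% down. Asz1 could not be tested, and Dazl, Sycp1, Taf7l, Slc25a31 and Tex101 were not called. Slc25a31 and Tex101 reached 10 counts in 7 and 3 libraries and so passed the expression filter through the withdrawn groups, while the other 6 tested genes reached it in all 9. The median log2 fold change of these 6 was 0.97, and that of all tested genes was 0.01.

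Mael encodes a protein of germ granules that is needed for transposon silencing by piRNAs, and lies at chr1:166201201-166238747 on the minus strand. It stood at 9.19, 7.84 and 6.32 CPM in replicates 1, 2 and 3 with LIF2i and at 28.7, 23.7 and 11.6 CPM after withdrawal. Every withdrawn library lay above every library with LIF2i, although replicate 3 was lower than the others in both groups. The log2 fold change was 1.38 (SE 0.20, adjusted p = 0.000646 by edgeR's quasi-likelihood test, adjusted after Benjamini and Hochberg). Mael-201 carried 95.8% of the gene's counts over all libraries.

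Ddx4, the mouse homologue of Vasa, is an RNA helicase of germ granules and a standard marker of germ cells. It lies at chr13:112598333-112652475 on the minus strand. It stood at 15.9, 18.2 and 20.2 CPM with LIF2i and at 35.2, 36.5 and 25.6 CPM after withdrawal. The groups did not overlap, and the smallest step was again in replicate 3. The log2 fold change was 0.83 (SE 0.17, adjusted p = 0.0046 by edgeR). Nearly all counts (99.8%) came from Ddx4-202.

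Asz1, also called Gasz, is the third germ granule gene of the set and anchors piRNA factors at mitochondria. It lies at chr6:18050964-18109061. Its estimated counts were 0, 7 and 3 with LIF2i, 7, 8 and 0 after withdrawal and 0, 1 and 2 with CK666. These values sit around the floor of 3 counts in all groups, so no difference was detectable at this depth.

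Sycp3 encodes a protein of the lateral element of the synaptonemal complex, the structure that holds paired chromosomes together in meiosis. It lies at chr10:88459569-88473236 on the plus strand. It stood at 10.8, 16.5 and 20.3 CPM with LIF2i and at 21.4, 85.6 and 60.3 CPM after withdrawal. The groups did not overlap, but by only a small margin, since replicate 1 after withdrawal was close to replicate 3 with LIF2i. The log2 fold change was 1.63 (SE 0.26, adjusted p = 0.0012 by edgeR), and without the replicate block it was 1.81 with an adjusted p of 0.050036, just over the threshold of 0.05.

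The value for Sycp3 carries a limit of the annotation. Chpt1, which encodes a choline phosphotransferase, lies on the other strand, and its exons cover 52.2% of the exonic bases of Sycp3. The library kit does not mark strand and the counting is not stated to use it, so reads in this stretch cannot be assigned to a gene with certainty. Chpt1 went the other way, from 20.5 ± 1.11 to 7.98 ± 1.16 CPM (SD, n = 3), with a log2 fold change of -1.37 (SE 0.19, adjusted p = 0.000488 by edgeR). Sycp3-201 carried 85.9% of the Sycp3 counts over all libraries, and 47.0% of its bases lie in Chpt1 exons.

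Sycp1 encodes the transverse filament of the same complex and lies at chr3:102818499-102936100. It did not follow Sycp3: it stood at 6.24, 6.80 and 6.62 CPM with LIF2i and at 7.09, 3.58 and 5.18 CPM after withdrawal. The groups overlapped and the difference was not called (log2 fold change -0.34, SE 0.28, adjusted p = 0.37 by edgeR), and its sign turned on the TPM scale (0.08). Of the 31-base words in its transcripts, 15.6% also occur in other genes, mainly the pseudogene Sycp1-ps1, which is listed at 0 in all libraries.

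Dazl encodes an RNA-binding protein that controls translation in germ cells and lies at chr17:50279395-50293636. It stood at 27.1, 6.48 and 6.20 CPM with LIF2i and at 6.85, 6.75 and 4.05 CPM after withdrawal. Replicate 1 with LIF2i was far above all other libraries, and the remaining values of both groups overlapped. The log2 fold change was -0.96 (SE 0.41, adjusted p = 0.092 by edgeR), and -0.22 without that 1 library. With LIF2i replicate 2 left out instead, it was -1.40 and passed the test (adjusted p = 0.019). In replicate 1 with LIF2i, 15.5% of the Dazl counts were assigned to the retained-intron transcript Dazl-203, and 80.0% to Dazl-201.

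The last 3 genes act late in germ cell development. Taf7l, an X-linked relative of the TFIID subunit Taf7 that serves in male germ cells, stood at 1.72, 1.10 and 2.07 CPM with LIF2i and at 5.45, 3.84 and 2.00 CPM after withdrawal. It was higher in replicates 1 and 2 only, and the log2 fold change of 1.12 was not called (SE 0.45, adjusted p = 0.078 by edgeR). With LIF2i replicate 3 left out it was 1.66 and passed the test (adjusted p = 0.024). Its transcript Taf7l-202 had counts in the 6 withdrawn libraries and none in the 3 with LIF2i.

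Slc25a31 encodes the ADP/ATP carrier of germ cell mitochondria, and its estimated counts were 2.5, 4.5 and 11 with LIF2i and 26, 32 and 18 after withdrawal. The groups did not overlap, but the log2 fold change of 2.01 was not called (SE 0.78, adjusted p = 0.067 by edgeR). Its value was 0.67 on log2(TPM + 1), and 3.33 with an adjusted p of 0.014 by edgeR when LIF2i replicate 3 was left out. Tex101, a surface protein of germ cells needed for sperm function, had 7, 4 and 2 counts with LIF2i and 7, 14 and 8 after withdrawal, with overlapping groups and no call (log2 fold change 1.19, SE 0.76, adjusted p = 0.24 by edgeR). Taf7l lies at chrX:134460118-134476490, Slc25a31 at chr3:40708855-40726096 and Tex101 at chr7:24668007-24676675.

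The groups before and after withdrawal did not overlap, with the withdrawn libraries higher, for 3 of the 6 tested genes that reached 10 counts in all libraries (Ddx4, Mael and Sycp3). Slc25a31, which passed the filter through the withdrawn groups, also did not overlap and is not counted here. Over all tested genes this share was 21.5%, and 19.2% were lower in this way.

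With CK666 present during withdrawal, Mael was 2.07-fold higher than in control cells withdrawn without it. It was the 1 germline gene of the 9 that was called in this comparison, and none was called down. Of all tested genes, 2.05% were called (300 genes), 1.15% up and 0.894% down. The withdrawn control libraries are the same as in the comparison above. The median log2 fold change was 0.52 over the 6 germline genes with 10 counts in all libraries and 0.02 over all tested genes.

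Mael stood at 28.7, 23.7 and 11.6 CPM in withdrawn control cells and at 47.4, 56.3 and 26.4 CPM with CK666. The groups overlapped, because replicate 3 was low in both, while each of the 3 same-numbered pairs was higher with CK666. The log2 fold change was 1.05 (SE 0.19, adjusted p = 0.034 by edgeR). Without the replicate block the adjusted p by edgeR was 0.46, with a log2 fold change of 1.02. The call held without replicate 1 (adjusted p = 0.0065 by edgeR) and was lost without replicate 2 (0.30) or replicate 3 (0.31). Leaving out 1 library at a time, it was also lost without any of the 3 withdrawn control libraries and without CK666 replicate 2 or 3, so it missed the threshold in 7 of the 12 fits that left out libraries. In those 12 fits the log2 fold change stayed between 0.886 and 1.198.

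Ddx4 stood at 35.2, 36.5 and 25.6 CPM in withdrawn control cells and at 45.9, 58.5 and 44.6 CPM with CK666. Each library with CK666 was above each control library, and Ddx4 was the only one of the 8 tested germline genes for which these groups did not overlap (8.79% of all tested genes were higher and 7.69% lower in this way). The log2 fold change of 0.61 was nevertheless not called (SE 0.17, adjusted p = 0.091 by edgeR). It passed with DESeq2 (adjusted p = 0.031) and in the edgeR fit without replicate 1, where it was 0.72 (adjusted p = 0.025).

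Sycp3, which rose on withdrawal, was nearly level between the withdrawn groups, at 18.6, 73.9 and 74.1 CPM with CK666 against 21.4, 85.6 and 60.3 CPM. Replicate 1 was the low library of both groups, and the log2 fold change was -0.03 (SE 0.25, adjusted p = 0.96 by edgeR). Chpt1, which shares exonic sequence with it, had a log2 fold change of 0.45 and was not called (adjusted p = 0.22 by edgeR).

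Taf7l stood at 5.45, 3.84 and 2.00 CPM in withdrawn control cells and at 6.21, 9.85 and 4.58 CPM with CK666. All 3 pairs were higher with CK666 but the groups overlapped, and the log2 fold change of 0.90 was not called (SE 0.43, adjusted p = 0.28 by edgeR). Dazl was at 7.63, 8.72 and 5.19 CPM with CK666 (log2 fold change 0.31, SE 0.40) and Sycp1 at 6.92, 7.08 and 6.93 CPM (0.43, SE 0.28), both not called. Slc25a31 had 45, 38 and 16.5 counts with CK666 (0.42, SE 0.68) and Tex101 had 20, 13 and 5 (0.29, SE 0.70), and both groups overlapped those of the control. The absence of a call does not show that these genes were equal in the withdrawn groups.

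Measured across both steps, from control cells with LIF2i to CK666 cells without it, 4 of the 6 germline genes with 10 counts in all libraries rose (Mael, Ddx4, Sycp3 and Taf7l) and none fell, and Slc25a31, which passed the filter through the withdrawn groups, was also called up. Of all tested genes, 36.9% were called, 19.8% up and 17.1% down, in this comparison, which uses the same libraries as the comparisons above. Mael rose 5.38-fold (log2 fold change 2.43, SE 0.20, adjusted p = 4.2e-05 by edgeR) and Ddx4 2.72-fold (1.44, SE 0.17, adjusted p = 0.000267). Sycp3 rose 3.02-fold (1.59, SE 0.26, adjusted p = 0.0015), with an adjusted p of 0.057 without the replicate block. These 3 are the genes that had also been called for withdrawal alone.

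Taf7l and Slc25a31 were called here and not for withdrawal alone, a difference that was not tested. Taf7l rose 4.04-fold (log2 fold change 2.01, SE 0.46, adjusted p = 0.0079 by edgeR), and its groups did not overlap. Slc25a31 had a log2 fold change of 2.43 (SE 0.79, adjusted p = 0.038 by edgeR) from a group near the floor, and 8 of the 12 fits that left out libraries lost this call. Without replicate 2, Taf7l missed the threshold too (1.44, adjusted p = 0.094). Dazl (-0.65), Sycp1 (0.09) and Tex101 (1.47) were not called, and the Dazl value was 0.06 without LIF2i replicate 1. Of the 6 tested genes that reached 10 counts in all libraries, the groups did not overlap, with CK666 higher, for 4 (Ddx4, Mael, Taf7l and Sycp1, the last not called). The same held for Slc25a31, which is not counted here, while the Sycp3 groups overlapped (18.6 CPM in CK666 replicate 1 against 20.3 CPM in LIF2i replicate 3). Over all tested genes, 20.5% were higher and 16.8% lower without overlap.

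**Figure D3:**
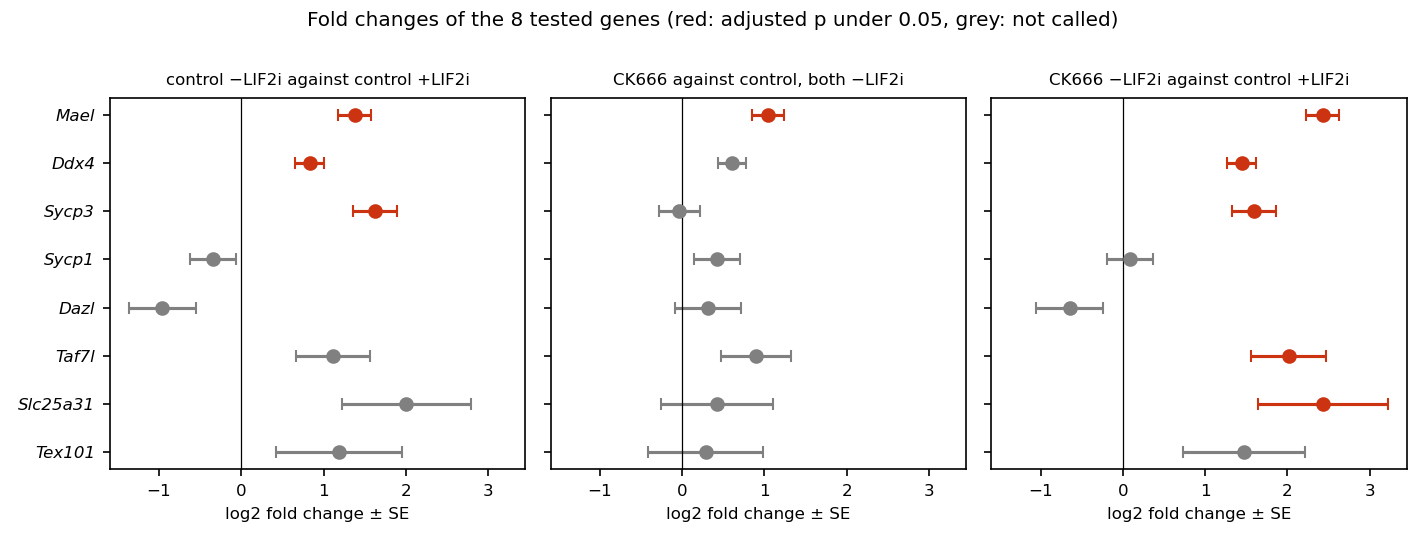
The x axis is the log2 fold change from the edgeR fit of all 9 libraries. Bars are ± SE, derived from the test's F statistic. The 8 tested germline genes are on the y axis, with 1 panel per comparison. Red marks an adjusted p under 0.05: 3 genes for withdrawal, Mael alone for CK666 and 5 genes, Slc25a31 included, for CK666 without LIF2i against control with LIF2i.

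The libraries of replicate 1 stood apart, so the counts were repeated without them. Then 3 germline genes were called up for withdrawal (Mael, Ddx4 and Sycp3), 2 for CK666 (Mael and Ddx4), and 4 across both steps (Mael, Ddx4, Sycp3 and Taf7l). Over all genes these fits called 6588, 1811 and 6129 genes, against 5967, 300 and 5408 with replicate 1, so the second CK666 call came with a general increase in calls.

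For each tested gene, the protein-coding genes whose log2 CPM ran most in parallel over the 9 libraries were looked up among 11730 genes. Mael ran with Snx24 and Fam13a (both r = 0.976) and Ddx4 with Zfp512 (r = 0.983). Sycp3 ran with Rit1 (r = 0.979) and Gm3558 (r = 0.975), Taf7l with Dock4 (r = 0.968) and Celf5 (r = 0.960), and Dazl with Zfp180 (r = 0.964) and Synj2 (r = 0.955). Sycp1 ran with Osbpl2 (r = 0.941) and Hrk (r = 0.922), Slc25a31 with Efna1 (r = 0.954) and Prdm11 (r = 0.943), and Tex101 with Cebpb (r = 0.920) and Sez6 (r = 0.915). These values describe 9 libraries that share 3 groups and 3 replicate numbers. No germline gene of the set was among the 2 nearest genes of another. Only these 2 were kept, so this cannot show whether the germline genes ran together. Weakly expressed genes, averaging under 1 on the log2 CPM scale, were not eligible. Slc25a31 (-0.07), Tex101 (-0.98) and the untested Asz1 could therefore not appear.

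Of 18 tested other genes of the piRNA pathway and germ granules, 5 rose and 1 fell on withdrawal (21.1% and 19.7% of all tested genes), none was called for CK666 (2.05% of all), and 7 rose and 1 fell across both steps (19.8% and 17.1% of all). The list's median log2 fold changes were -0.05, 0.08 and 0.22, beside 0.01, 0.02 and 0.01 over all tested genes. The Tudor-domain gene Tdrd1 rose from 1.18 ± 0.09 to 13.4 ± 6.53 CPM (SD, n = 3; log2 fold change 3.42, SE 0.31, adjusted p = 4.5e-05 by edgeR). Tdrd5, which is needed for germ granule assembly in spermatogenesis, rose from 1.64 ± 0.58 to 16.0 ± 3.22 CPM (3.30, SE 0.25). Tdrkh, a Tudor protein at mitochondria, rose from 2.63 ± 1.31 to 10.3 ± 1.47 CPM (2.03, SE 0.35), with 36.7% of its exonic bases shared with Oaz3 on the other strand. Fkbp6, a co-chaperone of the pathway, fell from 6.67 ± 2.46 to 2.41 ± 1.73 CPM (-1.67, SE 0.39, adjusted p = 0.0082 by edgeR, and 0.13 without the replicate block).

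Of 23 tested genes of the meiotic chromosome axis, synapsis and recombination, 8 rose and 3 fell on withdrawal (21.1% and 19.7% of all tested genes), 3 rose and none fell for CK666 (1.15% and 0.894% of all), and 9 rose and 1 fell across both steps (19.8% and 17.1% of all). The list's medians were 0.15, 0.60 and 0.23. Rec8, the meiotic kleisin subunit of cohesin, stood at 27.5, 29.2 and 19.2 CPM in withdrawn control cells and at 51.5, 49.1 and 58.4 CPM with CK666. Its groups did not overlap and its log2 fold change was 1.09 (SE 0.19, adjusted p = 0.031 by edgeR). It had also risen on withdrawal (0.93, SE 0.20), from 13.3 ± 2.95 to 25.3 ± 5.36 CPM.

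Stag3, another meiotic cohesin subunit, was called in opposite directions in the 2 comparisons, which share the withdrawn control libraries. It fell on withdrawal from 113, 138 and 118 CPM to 55.2, 84.8 and 40.7 CPM (log2 fold change -1.10, SE 0.16, adjusted p = 0.00059 by edgeR). With CK666 it stood at 93.2, 151 and 80.6 CPM, higher than its partner in each pair but with overlapping groups (0.85, SE 0.16, adjusted p = 0.034 by edgeR). Meioc, a regulator of meiotic prophase, rose on withdrawal (0.83, SE 0.15, adjusted p = 0.0018 by edgeR and 0.15 without the replicate block) and was higher again with CK666 (0.77, SE 0.14, adjusted p = 0.034 by edgeR). None of these 3 CK666 calls held without the replicate block, where the adjusted p was 0.30 for Rec8, 0.46 for Stag3 and 0.66 for Meioc. Each was also lost in at least 8 of the 12 fits that left out libraries.

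Hormad1, a protein of meiotic chromosome axes, fell on withdrawal (-1.76, SE 0.29), from 8.79 ± 1.25 to 2.63 ± 0.64 CPM, and had 5.77 ± 3.26 CPM with CK666, which was not called. Zcwpw1, a histone reader in meiotic recombination, rose on withdrawal (0.84, SE 0.14). The testis bromodomain gene Brdt rose from 1.55 ± 0.57 to 4.35 ± 1.504 CPM (1.49, SE 0.36, adjusted p = 0.0094 by edgeR), a call that held in 15 of 20 alternatives (highest adjusted p 0.10), with log2 fold changes of 0.60 to 2.14.

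**Figure D4:**
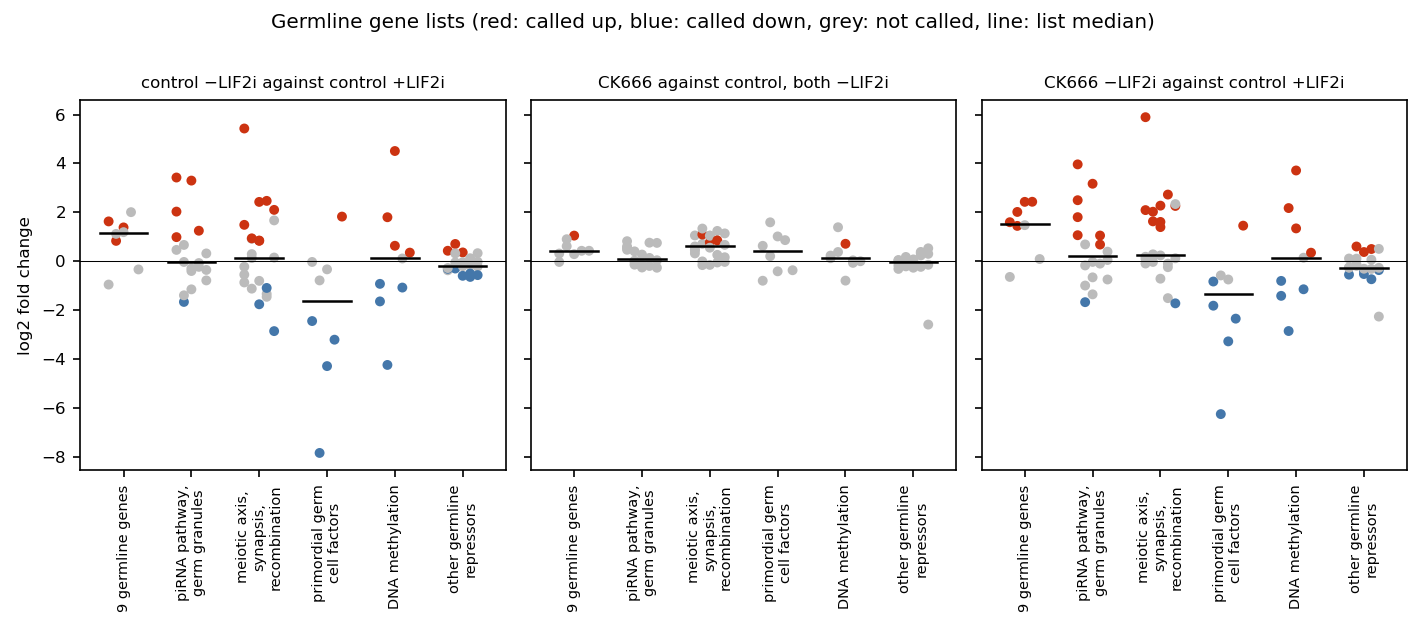
The y axis is the log2 fold change of each tested gene, with gene lists on the x axis and 1 panel per comparison. Red points are called up, blue points called down, grey points are not called, and the line is the list's median. For the germline genes the line is over the 8 tested (1.15, 0.43 and 1.53), of which Slc25a31 and Tex101 passed the filter through the withdrawn groups, and the primordial germ cell factors have medians of -1.62 and -1.33 in the first and last panel.

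Of 8 tested factors of primordial germ cells, 4 fell and 1 rose on withdrawal (19.7% and 21.1% of all tested genes), and none was called for CK666 (2.05% of all). Prdm14, a regulator of germ cell fate and of naive pluripotency, fell from 55.7, 43.5 and 46.8 CPM to 0, 0.36 and 0.27 CPM (log2 fold change -7.85, SE 0.50, adjusted p = 8.7e-06 by edgeR). The last values are close to the floor, so the size is uncertain. Tfap2c fell from 89.9 ± 6.25 to 5.03 ± 2.59 CPM (-4.30, SE 0.32), and the receptor gene Kit fell from 230.1 ± 98.3 to 24.2 ± 5.90 CPM (-3.21, SE 0.21). Lin28a, which encodes a regulator of let-7 microRNAs, rose from 199 ± 31.1 to 731 ± 183 CPM (1.82, SE 0.23).

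Among 9 genes of the DNA methylation machinery, 4 rose and 4 fell on withdrawal (21.1% and 19.7% of all tested genes). Dnmt3b stood at 69.9, 44.4 and 42.8 CPM with LIF2i and at 2259, 1018 and 716 CPM after withdrawal (log2 fold change 4.51, SE 0.26, adjusted p = 5.3e-06 by edgeR). Dnmt3a rose from 89.2 ± 6.37 to 353 ± 191 CPM (1.798, SE 0.28). The RNA of both de novo methyltransferases and that of Mael, Ddx4 and Sycp3 thus rose in the same comparison, and the promoter methylation of the 3 genes was not measured.

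The maintenance genes Dnmt1 (-0.93, SE 0.16) and Uhrf1 (-1.08, SE 0.12) fell, the latter from 726 ± 67.2 to 344 ± 42.9 CPM. Tet1 fell from 558 ± 72.2 to 180 ± 25.9 CPM (-1.65, SE 0.24) and Tet2 from 222 ± 150 to 10.4 ± 1.86 CPM (-4.25, SE 0.46), while Tet3 (0.63, SE 0.15) and the glycosylase gene Tdg (0.35, SE 0.11) rose. The Tdg call held in only 8 of 20 alternatives and was lost without the replicate block (adjusted p = 0.40 by edgeR). Dnmt3l, the catalytically inactive cofactor of the de novo enzymes, was not called (0.11, SE 0.44). For CK666, Tet3 alone of the 9 was called (2.05% of all tested genes), from 32.8 ± 4.89 to 53.8 ± 7.88 CPM (0.71, SE 0.15, adjusted p = 0.049 by edgeR), a call that was lost in 15 of 20 alternatives, among them RLE scaling (adjusted p = 0.052) and the fit without the replicate block (adjusted p = 0.33). Dnmt3b stood lower with CK666, at 1596, 441 and 429 CPM, a difference that was not called (-0.80, SE 0.23, adjusted p = 0.096 by edgeR).

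Of 20 tested repressors of germline genes that act without DNA methylation, 3 rose and 6 fell on withdrawal (21.1% and 19.7% of all tested genes), with log2 fold changes of -0.64 to 0.70 over the list, and none was called for CK666 (2.05% of all), where they ran from -2.59 to 0.53. E2f6 rose (0.70, SE 0.16), from 26.4 ± 3.21 to 43.3 ± 5.68 CPM, as did Pcgf6 (0.43, SE 0.12) and Ehmt1 (0.36, SE 0.11), the last 2 without a call when the replicate block was left out (adjusted p = 0.11 and 0.20 by edgeR). In the same Polycomb complex, Mga fell from 346 ± 27.7 to 233 ± 4.11 CPM (-0.57, SE 0.13), Rnf2, its ubiquitin ligase, fell (-0.60, SE 0.11) and Rybp fell (-0.64, SE 0.12). Wdr5 also fell on withdrawal (-0.51, SE 0.10). Across both steps 3 of the 20 rose and 5 fell (19.8% and 17.1% of all tested genes). Among these, Wdr5 (-0.74, SE 0.10) and Cbx3 (-0.55, SE 0.14) fell and Ehmt2 rose (0.50, SE 0.10). Mga (-0.27, SE 0.13) and Rybp (-0.32, SE 0.12) were not called across both steps. Without the replicate block the Cbx3 and Ehmt2 calls were lost (adjusted p = 0.50 and 0.38 by edgeR).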

How the data were processed

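Poly-A RNA of 9 cultures was sequenced, 3 in each group. Each library has a table of 119414 Ensembl transcripts in which the authors give, per the file headers, an estimated count, a TPM value, a length and an effective length. The deposited estimated counts carry no normalisation, whereas the deposited TPM values are divided by effective length and brought to 1 sum per library. The submitters' processing notes name FastQC, cutadapt 1.8.1, kallisto, sleuth and the builds mm10 and GRCh38, without roles. The transcript release and the use of strand are not given in the sources used here.

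Transcripts were assigned to genes with GENCODE M21 (GRCm38), and 116640 (97.7%) matched. The 2774 unmatched transcripts held 0.895% to 1.08% of the counts and were left out. Estimated counts were summed per gene and rounded to whole numbers. The test was edgeR 4.0.16 (R 4.3.3) with TMM scaling, its expression filter and the robust quasi-likelihood fit. All 9 libraries entered 1 fit with the replicate number as a block (4 residual degrees of freedom), and p-values were adjusted over 14648 genes with a threshold of 0.05. The study's design text calls the replicates paired, and same-numbered libraries deviated together (r of 0.30 to 0.65). Libraries with different numbers had r of 0.21 to 0.29 between replicates 2 and 3, close to the lowest of these, and -0.53 to -0.35 where 1 was of replicate 1. CPM values are TMM-scaled, shown as mean ± SD. Each SE of a log2 fold change is its absolute value divided by the square root of the test's F statistic. Detection floors cover counting error only.

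The germline genes and the lists were chosen with earlier results of these data known. List genes were named by a rule: all of the methylation list, and from the other lists up to 3 called genes per direction and comparison that had the largest change and a log2 CPM averaging 1 or more. The genes most parallel to each germline gene were named by Pearson's r, with 1 such gene not reported here. Chpt1 and Sycp1-ps1 were chosen after their overlap was seen, and Prdm14 values are per library because 1 is at 0. Start-site windows and their coordinates come from RefSeq (GRCm38.p6), gene coordinates from GENCODE, both 1-based. In counts simulated for withdrawal with 14648 genes, this fit recovered 50 of 100 genes changed 2-fold and 72 of 100 changed 4-fold, with 7 false calls. Leaving the block out gave 3 and 36, with 1 false call. Only the changed genes had a group effect there, whereas 40.7% of all tested genes were called for withdrawal. The recovery therefore cannot be carried over to the real data. Each simulated gene kept its replicate effect, so the gain from the block was built in. Alternatives were the fit without the block, RLE scaling, no filter, DESeq2 1.42.0, limma-voom (limma 3.58.1), log2(TPM + 1), log2(TPM + 0.1), protein-coding transcripts only, and 12 fits that left out libraries.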

Additional observations from a re-analysis of the deposited data

How the results depend on the processing

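The genes called up for withdrawal, Mael and Ddx4, kept their direction and call in all 20 alternatives (highest adjusted p 0.021 and 0.049), and Sycp3 in 19, the exception being the fit without the replicate block. For CK666 against control, the Mael call held in 10 of 20 alternatives, with a log2 fold change of 0.886 to 1.198 throughout. Without the replicate block, the genes called were 3509 rather than 5967 for withdrawal, 0 rather than 300 for CK666 (1251 at an unadjusted p under 0.05 by edgeR) and 2966 rather than 5408 across both steps, and 0 germline genes were called for CK666. For CK666, 565 genes were called without the expression filter, 1136 with DESeq2, 42 on log2(TPM + 1) and 23 on log2(TPM + 0.1). DESeq2 called 2 germline genes for CK666 and the TPM scales 0. For withdrawal, DESeq2 and log2(TPM + 0.1) each called 5 up, with Taf7l and Slc25a31 added. Over all genes they called 6312 and 4991 there, in either direction. In the 12 fits that left out libraries, the genes called ranged from 3099 to 6588 for withdrawal, 0 to 1811 for CK666 and 2413 to 6129 across both steps. The germline genes called up ranged from 3 to 5, 0 to 2 and 3 to 5, and 0 to 1 were called down for withdrawal (Dazl). For withdrawal and across both steps, these counts include Slc25a31 where it was called, although it passed the filter through the withdrawn groups. The fewest calls for CK666 came without replicate 3 (0) and the most without replicate 1 (1811), with 2 to 5 without CK666 replicate 2, control replicate 2 or control replicate 3 after withdrawal.

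The signs that turned belong to log2 fold changes not called with all libraries, and 1 of the turned values was itself called: Dnmt3l across both steps without replicate 1, at -0.498 (adjusted p = 0.031 by edgeR). On log2(TPM + 1) and log2(TPM + 0.1), Sycp1 was 0.085 and 0.055 for withdrawal and -0.071 and -0.037 for CK666, Dnmt3l -0.0266 and -0.0269 and Rnf2 -0.04497 and -0.0455 for CK666, and Fkbp6 was 0.020 on log2(TPM + 0.1). Without the block Dnmt3l was -0.037 for withdrawal and -0.014 across both steps. For CK666, Tdg was 0.0030 without the filter, E2f6 0.049 on protein-coding transcripts, and Ehmt1 -0.00032 with RLE scaling and -0.00029 with DESeq2. Leaving out libraries turned the sign at withdrawal for Dnmt3l from -0.421 to 0.533. For CK666 it did so for Sycp3 from -0.207 to 0.217, Slc25a31 from -0.0685 to 0.895, Tex101 from -0.289 to 0.667, Dnmt1 from -0.0913 to 0.223, Uhrf1 from -0.143 to 0.0236, Dnmt3l from -0.478 to 0.305, Tet1 from -0.10 to 0.55, Tdg from -0.0587 to 0.0348, Fkbp6 from -0.352 to 0.203, Ehmt1 from -0.0707 to 0.111 and Rnf2 from -0.0143 to 0.124. Across both steps the ranges were Dazl from -1.14 to 0.0964, Sycp1 from -0.0501 to 0.241 and Dnmt3l from -0.498 to 0.551. The cause of these changes was not tested. At these depths, Asz1, Tex101 and Slc25a31 with LIF2i are near the floor of 3 counts, so moderate changes in them cannot be seen.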

Other observations

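Replicate 1 of the control cells with LIF2i, the library in which Dazl was high, also differed from replicates 2 and 3 of its group in other genes of the lists. Dazl stood at 27.1 CPM in it against 6.48 and 6.20 CPM, the receptor gene Kit at 344 CPM against 171 and 175 CPM, and Tet2 at 390 CPM against 101 and 174 CPM. Dnmt3l went the other way, at 46.5 CPM against 230 and 174 CPM. The library had the fewest genes with a count above 0 of the 9 (15690), although its total of 21635106 estimated counts was the second highest. These genes were picked after their values were seen.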
